A study of Mus musculus with 16 samples.

Results

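Of the 8 osteosarcomas with floxed *Arid1a*, 4 held abundant mRNA of cell-cycle genes and 4 held little. The groups were chosen by measured values, the mean log2 CPM (read counts scaled to a common library total, with a prior count of 2, over protein-coding genes) of *Mki67*, *Top2a*, *Ccnb1*, *Cdk1* and *Bub1*, which made up a score of 5 genes. The high tumors were Zelda, Medusa, Ohio and Grilka, and the low tumors were Massa, Oregon, Prince and Montana, which together are 8 of the 16 tumors sequenced. All 8 mice carried the OsxCreERT2+/- transgene together with the alleles p53fl/fl, Rb1fl/fl and Arid1afl/fl, so that *Trp53*, *Rb1* and *Arid1a* carried conditional alleles in the high and the low tumors alike. Each received 400 ug of tamoxifen per g at 1 month of age, and the mice were over 6 months old. The Cre recombinase is driven by the promoter of *Osterix* (*Sp7*), a transcription factor of bone-forming cells, so recombination is limited to cells that express it and to their progeny. Each of these tumors came from a different mouse, and the labels give neither its sex, its body site nor a batch. The other 8 tumors (WT) carried OsxCreERT2+/- with p53fl/fl and Rb1fl/fl, without the *Arid1a* allele, and came from 4 mice given the same tamoxifen. Their labels name a body site, which is lung in 1 and a part of the skeleton or a limb in the others. They are shown as values and enter a fit only in the alternative with all 16 tumors.

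Dividing cells pass through a DNA synthesis phase and mitosis, and each phase has its own wave of transcription. E2F factors, held back by the RB1 protein, drive the genes of DNA replication, and the DREAM and MYB-MuvB complexes act through the cell cycle homology region (CHR) and CCAAT boxes in the promoters of mitotic genes. Osteosarcoma cells are malignant cells that make bone matrix and express genes of the osteoblast lineage to differing degrees. A bulk RNA library of a tumor also holds RNA of vessels, immune cells and adjoining normal tissue.

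The promoters of members that were high or low together are shown with the motifs named here in capitals on either strand. They run from 250 bases before to 50 bases after the start of the gene and were taken from RefSeq (GRCm38.p6). *Cdk1* (chr10:69352863-69353162, minus strand) and *Top2a* (chr11:99024140-99024439, minus strand) encode the mitotic kinase and the DNA topoisomerase of the division score, and the capitals mark the CHR letters TTTGAA and the CCAAT box.
Cdk1: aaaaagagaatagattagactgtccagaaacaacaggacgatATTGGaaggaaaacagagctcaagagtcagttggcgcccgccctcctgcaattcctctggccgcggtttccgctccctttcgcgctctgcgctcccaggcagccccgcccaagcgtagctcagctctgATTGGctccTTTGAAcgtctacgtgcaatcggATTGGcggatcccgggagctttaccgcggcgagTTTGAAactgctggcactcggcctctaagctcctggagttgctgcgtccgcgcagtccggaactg
Top2a: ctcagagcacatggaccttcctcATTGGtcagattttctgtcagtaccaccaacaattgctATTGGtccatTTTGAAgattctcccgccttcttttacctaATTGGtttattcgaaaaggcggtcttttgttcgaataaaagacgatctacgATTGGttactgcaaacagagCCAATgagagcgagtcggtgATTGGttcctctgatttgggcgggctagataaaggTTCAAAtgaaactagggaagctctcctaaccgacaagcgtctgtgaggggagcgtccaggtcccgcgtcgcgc
*Spp1* (chr5:104434861-104435160, plus strand) encodes osteopontin, a matrix protein of bone, and the capitals mark ACCACA, the core letters bound by RUNX factors.
Spp1: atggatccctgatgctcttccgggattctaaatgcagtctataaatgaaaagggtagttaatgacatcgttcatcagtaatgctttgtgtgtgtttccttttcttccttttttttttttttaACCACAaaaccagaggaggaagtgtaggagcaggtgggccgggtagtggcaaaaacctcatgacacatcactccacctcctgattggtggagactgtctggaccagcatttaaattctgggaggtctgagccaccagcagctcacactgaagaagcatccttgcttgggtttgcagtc
*Myh4* (chr11:67237562-67237861, plus strand) encodes a myosin of fast skeletal muscle fibers and stands for the normal tissue of Montana and Oregon, and the capitals mark CAGCTG, an E-box of the kind that myogenic factors bind.
Myh4: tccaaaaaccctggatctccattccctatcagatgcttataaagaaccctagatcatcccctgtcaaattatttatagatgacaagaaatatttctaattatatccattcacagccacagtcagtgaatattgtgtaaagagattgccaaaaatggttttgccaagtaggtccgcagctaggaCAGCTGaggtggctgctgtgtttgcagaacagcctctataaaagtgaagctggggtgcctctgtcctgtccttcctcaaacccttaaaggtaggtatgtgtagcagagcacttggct
The *Cdk1* promoter held 2 CHR and 3 CCAAT matches, and that of *Top2a* held 2 and 6. TTTGAA was present in 20 of 28 promoters of the mitosis list (71.4%) and in 18.1% of 27025 promoters, with the first listed start of each gene. CCAAT was present in 19 of the 28 (67.9%) and in 37.9% of all. CAGCTG was present in 10 of 21 promoters of the skeletal muscle list (47.6%) and in 16.1% of all. ACCACA was present in 5 of 14 promoters of the osteoblast list (35.7%) and in 16.9% of all. Of the 5 score genes 3 held TTTGAA and 5 held CCAAT. Members of the lists without a promoter entry, *Sp7* and *Col1a1* among them, were left out. These matches describe letters in the window, and no binding was measured.

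The libraries of the 8 tumors held between 1109487 and 15059640 counts on genes, and 33.3% to 89.6% of these were on protein-coding genes. Depth did not separate the groups, with a log2 difference in total counts of 0.13, high minus low (exact permutation test, two-sided, p = 0.914, smallest possible p = 0.0286, with 4 tumors in each group). Counts on ribosomal RNA genes took 0.437% to 18.4% in the high tumors and 0.740% to 13.7% in the low tumors (same exact permutation test, p = 0.914). The shallowest libraries, Massa (low) and Grilka (high), were on opposite sides of the division. A count of 3 in them corresponds to 5.73 and 3.25 CPM, against 0.174 to 0.673 CPM in the other 6. The TMM normalization of edgeR scaled all CPM of single genes given from here on, unless stated otherwise. These floors and the intervals of shares cover counting error only.

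*Arid1a*, which encodes a subunit of the BAF chromatin remodeling complex, was read at 183 CPM in Medusa, 156 in Ohio, 218 in Grilka, 140 in Zelda, 91.7 in Massa, 99.9 in Montana, 191 in Prince and 133 in Oregon. The groups overlapped, and high minus low gave 0.43 on the log2 scale (standard error 0.41, edgeR adjusted p = 0.547). For *Trp53* it was −0.45 (standard error 0.43, edgeR adjusted p = 0.546) and for *Rb1* 0.60 (standard error 0.57, edgeR adjusted p = 0.549). Counts were made over whole genes and give no separate value for the exons between the loxP sites.

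The division itself was wide. The mean log2 CPM of the 5 genes was 7.65 in Zelda, 6.98 in Medusa, 6.98 in Ohio and 5.71 in Grilka. In the low tumors it was 1.82 in Massa, 1.23 in Oregon, 0.99 in Prince and 0.69 in Montana. Grilka and Massa, the shallow libraries, were thus the members just inside and just outside, 3.90 apart. The 8 WT tumors lay between 4.24 and 7.21, above every low tumor. Because these genes chose the groups, their values and those of the other cell-cycle lists are given with no test.

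*Mki67*, the Ki-67 antigen of cycling cells, had 17587 counts in Zelda, 6911 in Medusa, 4964 in Ohio and 379 in Grilka. It had 120 counts in Prince, 76 in Oregon, 17 in Montana and 13 in Massa. As CPM over protein-coding genes this was 628 to 1978 in the high tumors, 3.91 to 27.1 in the low tumors and 76.1 to 435 in WT. For this gene the high tumors lay above the WT range and the low tumors below it. *Top2a* was at 211 to 597 against 2.99 to 8.32 on the same scale, and *Cdk1* was at 33.2 to 69.4 against 0.436 to 2.081. The WT tumors were at 30.8 to 498 for *Top2a* and at 15.2 to 105 for *Cdk1*. *Ccnb1*, the cyclin partner of CDK1, had 673, 304, 94 and 6 counts in Zelda, Ohio, Medusa and Grilka and 7, 3, 1 and 0 counts in Prince, Montana, Oregon and Massa. The 6 counts of Grilka and the 7 of Prince stand in libraries whose protein-coding depths were 603051 and 13487957, which gives 9.95 and 0.519 CPM. *Bub1*, a kinase of the spindle checkpoint, was at 8.29 to 51.9 against 0.371 to 2.081 on the same scale. Among the score genes, *Mki67* alone was higher in every high tumor than in every WT tumor. For *Top2a*, *Cdk1*, *Ccnb1* and *Bub1* the high tumors overlapped the WT range, and the low tumors lay below it.

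**Figure D1:**
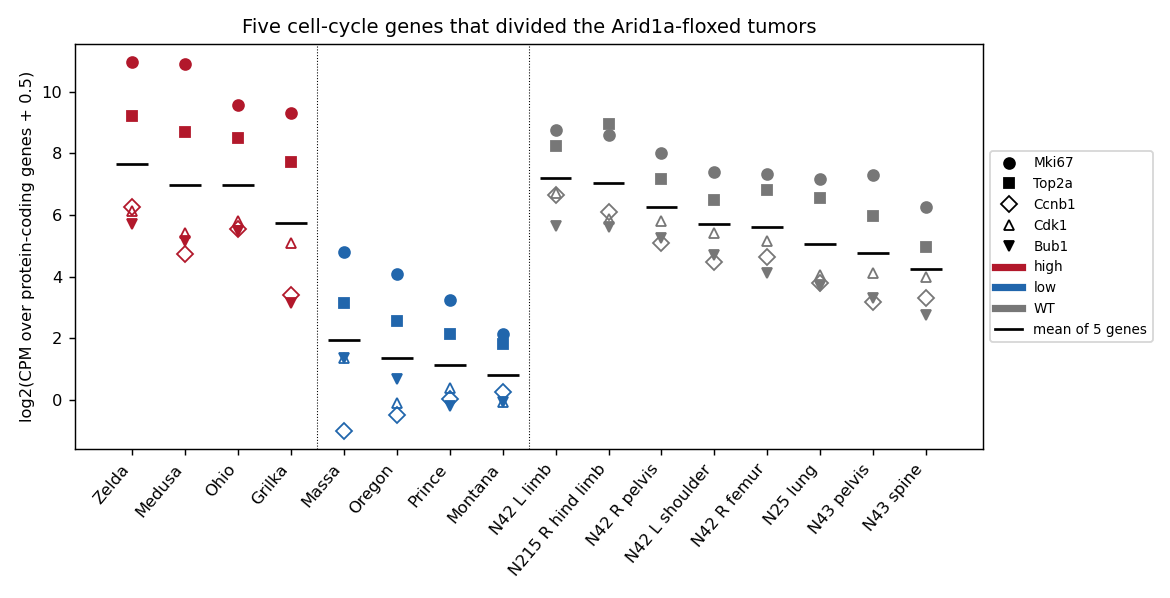
Each symbol is a gene of the division score in a tumor, as log2(CPM over protein-coding genes + 0.5), and the black bar is the mean of the 5 genes. The 4 high tumors (red) and the 4 low tumors (blue) do not overlap in any of the 5 genes, and the 8 WT tumors (gray) lie above the low tumors in the mean.

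The rest of the cell cycle followed the same division as a description. Of the 35 mitosis genes 34 passed the filter on low counts, all 34 had a positive log2 fold change, and their median was 4.56, or 4.41 with the 1 member that was at the floor of 3 counts in every low tumor set to its bound. In that list *Cenpf*, a kinetochore protein, was at 131 to 399 CPM in the high tumors and 2.13 to 7.18 CPM in the low tumors. Of the 35 DNA replication genes 31 were tested, all with a positive sign and a median of 2.80 on the log2 scale. *Mcm6*, a subunit of the replicative helicase, was at 50.9 to 94.1 CPM against 4.40 to 18.7 CPM, and *Rrm1*, a subunit of ribonucleotide reductase, at 36.8 to 146 against 16.7 to 26.7. The 12 tested genes of replication-coupled chromatin had a median of 2.74, with the DNA methyltransferase *Dnmt1* at 96.2 to 313 CPM against 22.4 to 56.8.

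The genes that control entry into S phase were divided among themselves. All 16 were tested, and their median log2 fold change was 1.92. *Ccne1* and *E2f8*, which act at or after the G1 to S transition, had log2 fold changes of 4.66 and 4.72. The D-type cyclins, which respond to growth signals upstream of RB1, did not follow the division. *Ccnd2* was at 78.5, 84.8, 115 and 138 CPM in Medusa, Ohio, Grilka and Zelda and at 210, 47.0, 30.0 and 41.7 CPM in Massa, Montana, Prince and Oregon. Its highest value was in a low tumor, and the log2 fold change was 0.37. *Ccnd3* had a log2 fold change of 0.12 and *Ccnd1* of 0.29, and in both the groups overlapped.

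Outside the cell-cycle lists, 13032 genes were tested, 544 of them higher and 529 lower in the high tumors at an edgeR adjusted p under 0.05. Over all 13130 genes tested, 1147 were called (8.74%), 618 higher (4.71%) and 529 lower (4.03%). At an unadjusted p under 0.05 there were 3407 genes. The groups were formed from the same libraries, so these p-values describe how closely a gene followed the division in these 8 tumors and are no test of the division itself. As these are bulk libraries, fewer cells of a type and less RNA per cell cannot be told apart for any gene. The count depended on single tumors. Without Medusa it was 248, without Montana 353, without Ohio 365, without Oregon 521 and without Grilka 731. Of these, 193, 214, 283, 334 and 509 were higher, in the same order, and the list counts below are to be read against them.

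Outside the cell-cycle lists, the 12 protein-coding genes with the smallest p among those higher without overlap were examined. They included 9 known from cell division or DNA replication and repair, a grouping made after they were seen and not tested. These were *Ticrr*, *Dlgap5*, *Brca1*, *Aspm*, *Arhgap11a*, *Ncapg*, *Kif20b*, *Kif15* and *Kntc1*. *Aspm*, a spindle pole protein, was at 138, 76.0, 33.6 and 107 CPM in Medusa, Ohio, Grilka and Zelda and at 0, 1.46, 0.867 and 1.35 CPM in Massa, Montana, Prince and Oregon, with a log2 fold change of 6.32. The lack of overlap was a condition of the choice, and as for the cell-cycle lists no test is given. *Ticrr*, which helps to start replication origins, had 3 counts or fewer in every low tumor. Against that floor per library it was at least 11.3-fold higher, with 11.9 to 26.4 CPM in the high tumors.

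The other 3 of the 12 were *Cdh2*, which is also a member of the mesenchymal matrix list given below, *Mthfd1l* and *Lipc*. For these too the lack of overlap and the small p were conditions of the choice. *Cdh2*, which encodes N-cadherin, was at 172, 146, 172 and 71.1 CPM in Medusa, Ohio, Grilka and Zelda and at 3.82, 3.75, 1.80 and 6.95 CPM in Massa, Montana, Prince and Oregon. All high tumors exceeded all low tumors, by 5.11 on the log2 scale (standard error 0.58, edgeR adjusted p = 0.00227). *Mthfd1l*, a mitochondrial enzyme of folate metabolism, was at 52.7 ± 11.6 CPM (SD, n = 4) against 3.86 ± 1.42 (SD, n = 4). *Lipc*, which encodes a lipase, was at 8.43 to 21.6 CPM in the high tumors and had at most 3 counts in each low tumor, so it was at least 7.52-fold higher.

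The bone-forming program followed the same division. Of 22 osteoblast genes 17 were tested, all 17 had a positive sign, their median was 3.94 on the log2 scale, and 9 were called higher against 4.71% of all genes. For 15 of the 17 the groups did not overlap, against 8.38% of all genes. The 5 not tested were *Bglap*, *Bglap2*, *Mepe*, *Sost* and *Ifitm5*, which were at low counts in most tumors. The osteoblast genes took 7.997%, 5.63%, 4.62% and 2.28% of the protein-coding counts of Grilka, Medusa, Ohio and Zelda. They took 0.356%, 0.260%, 0.256% and 0.0767% in Massa, Montana, Oregon and Prince, and 0.517% to 12.04% in WT. Every low tumor was thus below all high and all WT tumors in the summed level of these genes, although single members such as the type I collagens were still abundant in some of them.

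*Sp7*, the factor whose promoter drives the Cre, was at 93.2, 181, 184 and 17.2 CPM in Medusa, Ohio, Grilka and Zelda. It was at 0, 3.12, 0.133 and 9.42 CPM in Massa, Montana, Prince and Oregon (log2 fold change 5.06, standard error 1.19, edgeR adjusted p = 0.0298). Zelda, the high tumor with the least *Sp7*, was still above Oregon, the low tumor with the most. *Alpl*, the tissue-nonspecific alkaline phosphatase that mineralizes bone, was at 100 to 268 CPM against 3.82 to 23.6 CPM (log2 fold change 3.85, standard error 0.62, edgeR adjusted p = 0.00745). *Spp1*, whose promoter is printed above, was at 246 to 606 CPM against 10.8 to 64.9 CPM (log2 fold change 3.67, standard error 0.66, edgeR adjusted p = 0.0120).

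The type I collagen chains were the most abundant members. *Col1a2* was at 9148, 7793, 14359 and 3966 CPM in Medusa, Ohio, Grilka and Zelda and at 716, 733, 216 and 741 CPM in Massa, Montana, Prince and Oregon. The groups did not overlap (log2 fold change 3.87, standard error 1.01, edgeR adjusted p = 0.0416), but only 7 of 19 alternative settings kept this call. *Col1a1* had a similar difference of 3.90 on the log2 scale that did not pass (standard error 1.28, edgeR adjusted p = 0.0837), and neither did *Sparc*, osteonectin (log2 fold change 2.35, edgeR adjusted p = 0.0652). *Runx2*, a master regulator of the lineage, overlapped because of a single low tumor. It was at 154 CPM in Prince, above the 65.7 CPM of Zelda, while Massa, Montana and Oregon had 9.55, 5.62 and 29.8 CPM (edgeR adjusted p = 0.185). Without Montana and Oregon 7 of 20 tested osteoblast genes were called higher (median 5.04), without Massa and Grilka 7 of 20 (median 3.91), and without Montana alone 2 of 20 (median 3.93). Without Medusa and without Ohio it was 4 of 17 each. Over all genes the calls fell as well, to 193 of 14128 higher without Medusa, 283 of 13385 without Ohio and 214 of 14208 without Montana.

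Matrix genes of mesenchymal cells were higher in part. All 28 were tested, 10 were called higher against 4.71% of all genes and none lower, and the median log2 fold change was 1.33. *Tnc*, the matrix protein tenascin C, was at 2960, 1320, 1119 and 473 CPM in Medusa, Ohio, Grilka and Zelda and at 30.6, 48.5, 15.9 and 36.8 CPM in Massa, Montana, Prince and Oregon. The lowest high tumor was above the highest low tumor (log2 fold change 5.48, standard error 0.82, edgeR adjusted p = 0.00698). *Col5a2*, a fibrillar collagen chain, was at 823 to 2046 CPM against 32.5 to 167 CPM (log2 fold change 3.55, edgeR adjusted p = 0.0162). *Cdh11* (osteoblast cadherin), *Fap*, *Twist1*, *Fn1*, *Col6a3*, *Col5a1*, *Pdgfra* and *Cdh2* were also called. Among the 18 members not called, *Vim*, the intermediate filament vimentin, had a log2 fold change of 0.64, *Col3a1*, type III collagen, 1.02 and *Dcn*, the proteoglycan decorin, −1.76 (edgeR adjusted p = 0.645, 0.381 and 0.132). The count of 10 was 3 without Medusa, 3 without Montana, 4 without Ohio, 5 without Oregon and 6 without Grilka.

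Of 14 cartilage genes 7 were tested, and 2 were called higher against 4.71% of all genes. These were *Col11a1* and *Col11a2*, chains of type XI collagen, with log2 fold changes of 4.31 and 3.88 (edgeR adjusted p = 0.0159 and 0.0189). Neither is restricted to cartilage. The count was 0 by edgeR without Medusa, without Montana, and without Massa and Grilka (3 genes at an unadjusted p under 0.05 in each), and 1 without Ohio and without Montana and Oregon. *Acan*, the cartilage proteoglycan aggrecan, was at 391 CPM in Grilka, 56.8 in Oregon and at most 9.55 in the other 6 tumors. It therefore marked 1 tumor of each group and not the division. *Sox9*, a chondrocyte factor, had its highest values in Grilka (103 CPM) and Prince (89.8 CPM), also on opposite sides.

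**Figure D2:**
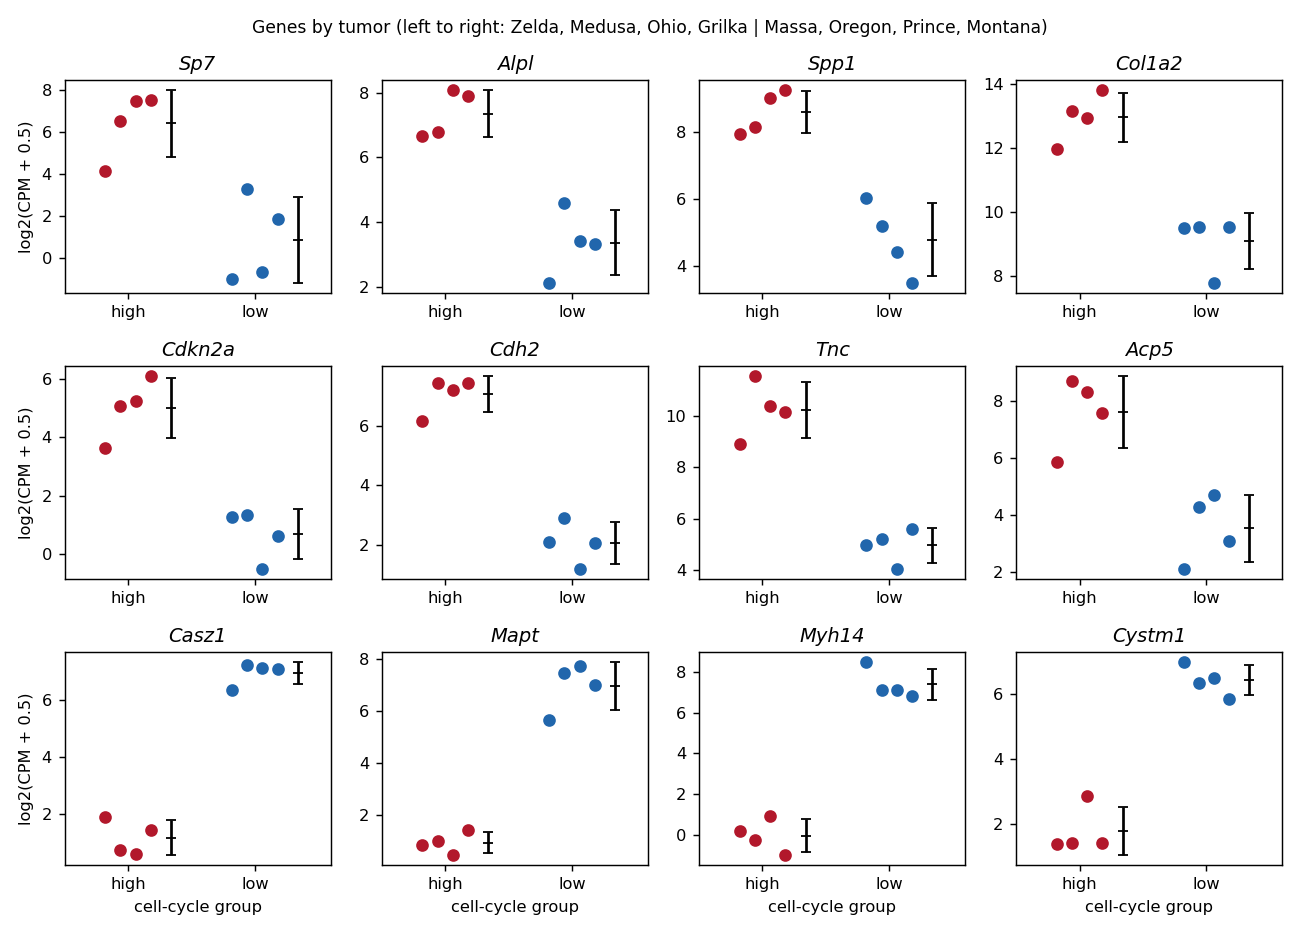
Points are log2(CPM + 0.5) of 12 genes in each high (red) and low (blue) tumor, and bars are the mean ± SD of 4 tumors. *Sp7*, *Alpl*, *Spp1*, *Col1a2*, *Cdkn2a*, *Cdh2*, *Tnc* and *Acp5* were without overlap higher in the high tumors, and *Casz1*, *Mapt*, *Myh14* and *Cystm1* were without overlap lower.

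The list of genes that restrain the cell cycle did not move as a group. Of its 15 members 1 was called higher and 2 lower, against 4.71% and 4.03% of all genes, and the median log2 fold change was −0.29. *Cdkn2a*, which encodes the inhibitor p16INK4a and the p53 activator p19ARF and is known to be high where RB1 is lost, was at 33.5, 37.2, 68.2 and 11.9 CPM in Medusa, Ohio, Grilka and Zelda. In Massa, Montana, Prince and Oregon it was at 1.91, 1.04, 0.200 and 2.02 CPM. The groups did not overlap, and the gene was higher in the proliferating tumors (log2 fold change 5.10, standard error 0.84, edgeR adjusted p = 0.00835). *Cdkn1a*, the p21 inhibitor, was at 160 CPM in Montana and 3.93 CPM in Prince, and *Cdkn1b*, p27, was at 33.9 to 99.0 against 38.9 to 57.9 CPM. Neither passed (edgeR adjusted p = 0.671 and 0.559).

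The 2 members that were lower were *Ccng1* and *Txnip*. *Ccng1*, a cyclin that p53 induces, was at 35.5, 18.9, 40.0 and 66.6 CPM in Medusa, Ohio, Grilka and Zelda and at 174, 383, 141 and 552 CPM in Massa, Montana, Prince and Oregon (log2 fold change −2.96, standard error 0.61, edgeR adjusted p = 0.0193). *Txnip*, an inhibitor of thioredoxin and of glucose uptake, was at 51.7 to 161 CPM against 293 to 579 CPM (log2 fold change −2.18, standard error 0.53, edgeR adjusted p = 0.0330). Oregon, which with Montana held the most muscle RNA, was the highest of the 8 tumors in both genes, and a part of muscle was not tested. *Txnip* was next highest in Massa, at 424 CPM, above the 334 CPM of Montana. Without Montana and Oregon neither passed, with log2 fold changes of −1.97 for *Ccng1* (edgeR adjusted p = 0.100) and −2.01 for *Txnip* (edgeR adjusted p = 0.121). *Ccng1* passed in 14 and *Txnip* in 10 of 19 alternative settings, and both were lost without Medusa, Montana, Ohio or Grilka, and *Txnip* also without Oregon.

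Growth genes were higher in few members. Of 18 genes of ribosome biogenesis 3 were called higher against 4.71% of all genes, *Myc*, *Nop56* and *Gnl3*, and the median log2 fold change was 0.86. *Myc*, a transcription factor that drives growth, was at 56.0, 270, 123 and 46.5 CPM in Medusa, Ohio, Grilka and Zelda. It was at 7.64, 18.3, 17.5 and 20.6 CPM in Massa, Montana, Prince and Oregon, so the groups did not overlap (log2 fold change 2.91, standard error 0.63, edgeR adjusted p = 0.0223). The nucleolar proteins *Ncl* and *Npm1* had log2 fold changes of 0.76 each that did not pass (edgeR adjusted p = 0.406 and 0.409). The count of 3 was 0 by edgeR without Montana, Ohio or Oregon (5, 5 and 7 genes at an unadjusted p under 0.05). It was 1 without Medusa, without Massa and Grilka, and without Montana and Oregon.

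In energy metabolism, genes of the respiratory chain were lower in the high tumors on the TMM scale. As a share of protein-coding counts the list took 0.156% to 0.202% in the high tumors. It took 0.148% in Massa, below every high tumor, 0.265% in Prince, 0.418% in Oregon and 0.435% in Montana. All 26 genes tested had a negative log2 fold change with a median of −1.64, 10 were called lower against 4.03% of all genes, and for 16 the groups did not overlap against 7.23%. *Cox4i1*, a subunit of cytochrome c oxidase, was at 37.7, 41.8, 56.3 and 27.8 CPM in Medusa, Ohio, Grilka and Zelda and at 86.0, 177, 114 and 189 CPM in Massa, Montana, Prince and Oregon (log2 fold change −1.80, standard error 0.42, edgeR adjusted p = 0.0290). Montana and Oregon, which held the most muscle RNA, had the highest values, and a part of muscle in this difference was not tested. Without these 2 tumors 0 of the 26 genes were called by edgeR, 10 were under an unadjusted p of 0.05, and the median was −1.01. The count was also 0 without Medusa, without Montana and without Ohio, 1 without Oregon, 4 without Grilka, 4 without Zelda and 19 without Massa. Without Medusa, Montana and Ohio, in this order, 20, 19 and 19 genes were under an unadjusted p of 0.05 by edgeR. The medians there were −1.62, −1.47 and −1.52. Of 14 glycolysis genes 0 were called by edgeR, 6 at an unadjusted p under 0.05, 3 by DESeq2 and 0 by voom, with a median of −1.12. *Gapdh* was at 2185 and 3241 CPM in Montana and Oregon and at 142 to 453 CPM in the other 6 tumors.

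**Figure D3:**
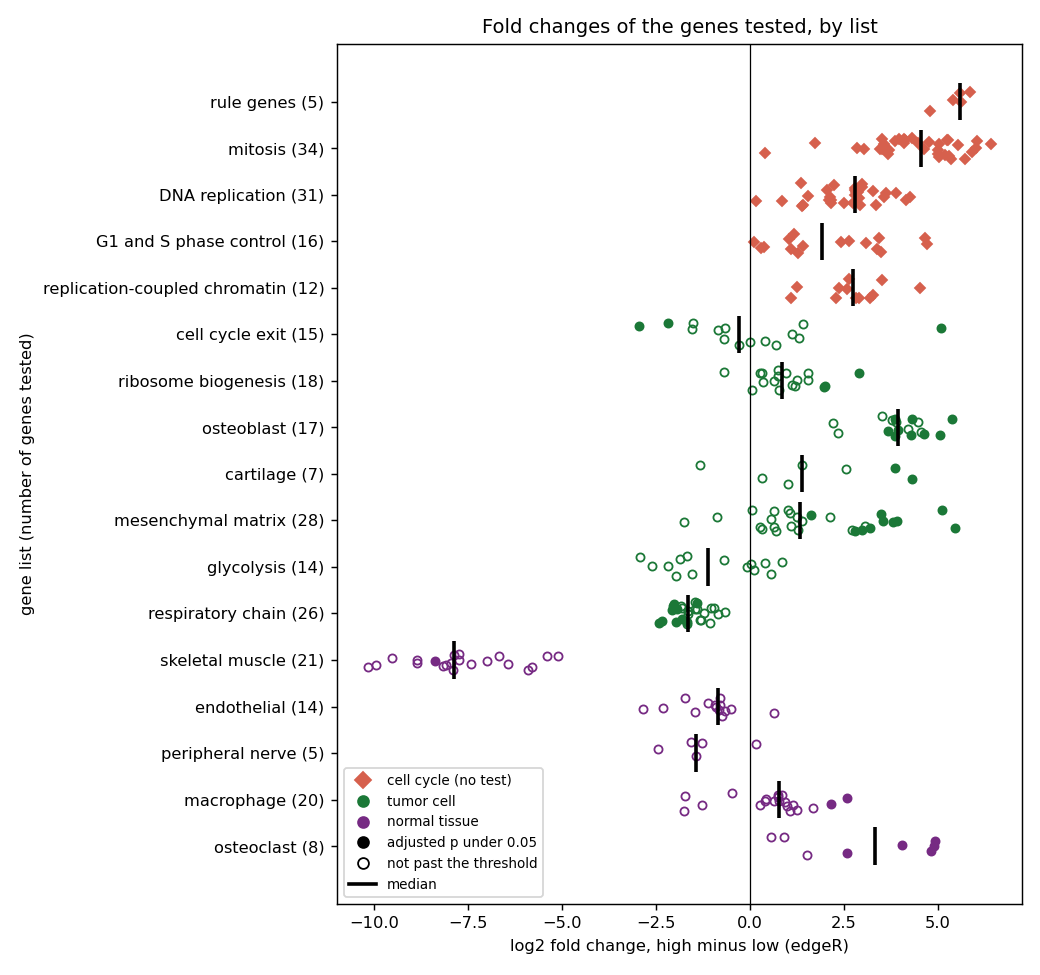
Each point is the edgeR log2 fold change, high minus low, of a tested gene in lists with at least 5 tested genes, with filled circles past an adjusted p of 0.05 and black bars at the medians. The osteoblast (3.94) and osteoclast (3.32) medians lay near those of the cell-cycle lists (diamonds, no test). The skeletal muscle median was −7.88 with 1 of 21 genes past the threshold in edgeR, against 23 of 28 in DESeq2.

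The low tumors did not share a normal tissue. The 13 lists of normal cells and tissues held 198 genes, but 84 passed the filter, since many were expressed in a single tumor. Of the 84, 7 were called higher and 4 lower by edgeR, against 4.71% and 4.03% of all genes. The 28 skeletal muscle genes took 28.2% of the protein-coding counts of Oregon (95% Wilson interval 28.1 to 28.2%) and 27.3% of those of Montana (27.2 to 27.3%). In the other 6 tumors they took at most 0.160%. *Myh4*, whose promoter is printed above, was at 56588 CPM in Oregon, 25895 in Montana, 40.0 in Grilka, 26.8 in Medusa, 6.74 in Ohio and 0 in Zelda, Massa and Prince. The log2 difference was −10.16 with an error of 3.84 (standard error, edgeR adjusted p = 0.126), and the low group itself was split.

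Prince held salivary gland genes and Massa lung genes. The salivary list took 17.6% of the protein-coding counts of Prince (95% Wilson interval 17.57 to 17.61%) and at most 0.119% elsewhere. *Egf*, abundant in the submandibular gland of mice, was at 74600 CPM in Prince. The lung list took 1.36% of Massa (1.33 to 1.39%) and at most 0.0661% of the other 7 floxed tumors, but up to 5.01% of a WT tumor. The WT set includes a tumor whose label names lung. *Sftpc*, surfactant protein C of the alveoli, was at 2750 CPM in Massa and at 0 to 1.08 CPM in the other 7, and *Nkx2-1*, a factor of lung epithelium, was at 781 CPM in Massa and had no count in the other 7. Epithelial genes took 0.242% of Prince and 0.103% of Massa, at most 0.00481% of the other 6 floxed tumors, and up to 0.164% of a WT tumor. Of this list edgeR called 1 of 2 tested genes lower, DESeq2 15 of 19 and voom 0 of 2. Without Montana and Oregon edgeR called 15 of 17 lower. Each low tumor was thus led by genes of a normal tissue, muscle in 2, salivary gland in 1 and lung in 1, and their part in the low cell-cycle level was not tested.

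The 5 genes that stood highest above the median of the other 7 tumors were *Scgb1a1*, *Sftpc*, *Sec14l3*, *Sftpb* and *Sftpa1* in Massa, and *Myh4*, *Ckm*, *Mybpc2*, *Pvalb* and *Atp2a1* in Oregon. In Montana they were *Ckm*, *Myh4*, *Atp2a1*, *Mybpc2* and *Mylk2*, and in Prince *Mucl2*, *Klk1b26*, *Ren1*, *Klk1b9* and *Crisp3*. *Mucl2*, a secreted mucin-like protein, reached 73640 CPM in Prince. The same salivary genes were present at far lower levels in Grilka and Oregon. *Mucl2* had 189 counts in Grilka and 505 in Oregon, against 1104192 in Prince, and at most 2 counts in the other 5. For the 5 genes the CPM of Grilka were 0.278% to 0.709% of those of Prince, and the CPM of Oregon were 0.154% to 0.425%. The *Klk1b* genes, *Ren1* and *Mucl2* belong to families of similar sequence, and how the counts were shared among copies is uncertain.

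Fat and vessel genes did not mark the division as lists. Of 11 adipocyte genes 4 were tested and 1 was called lower, against 4.03% of all genes. This was *Plin4*, which coats lipid droplets (log2 fold change −7.31, edgeR adjusted p = 0.0255). It was at 875 CPM in Montana, 399 in Oregon and at most 10.004 in the other 6. *Amy1*, an amylase of the salivary list, and *Krt7*, a keratin of the epithelial list, were called lower with log2 fold changes of −5.88 and −7.61 (edgeR adjusted p = 0.0440 and 0.0467), and both had their highest value or values in Prince or Massa. Of 14 endothelial genes 0 were called by edgeR, 3 at an unadjusted p under 0.05, 1 by DESeq2 and 1 by voom, with a median of −0.86. *Cdh5*, an adhesion molecule of vessels, was at 49.8 to 75.9 CPM against 11.004 to 153 CPM (edgeR adjusted p = 0.652). Of 7 peripheral nerve genes 5 were tested and 0 were called by edgeR, 1 at an unadjusted p under 0.05, 2 by DESeq2 and 0 by voom.

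Zelda stood apart among the high tumors. It held liver genes at 0.376% of protein-coding counts (95% Wilson interval 0.372 to 0.380%), erythroid genes at 0.261%, lymphoid genes at 0.133% and neutrophil genes at 0.0811%, each the highest of the 8 tumors. *Alb*, serum albumin, was at 747 CPM in Zelda and at most 17.2 CPM in the others. Its cell-cycle score was also the highest of the 8, so normal-tissue genes were not restricted to low tumors.

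**Figure D4:**
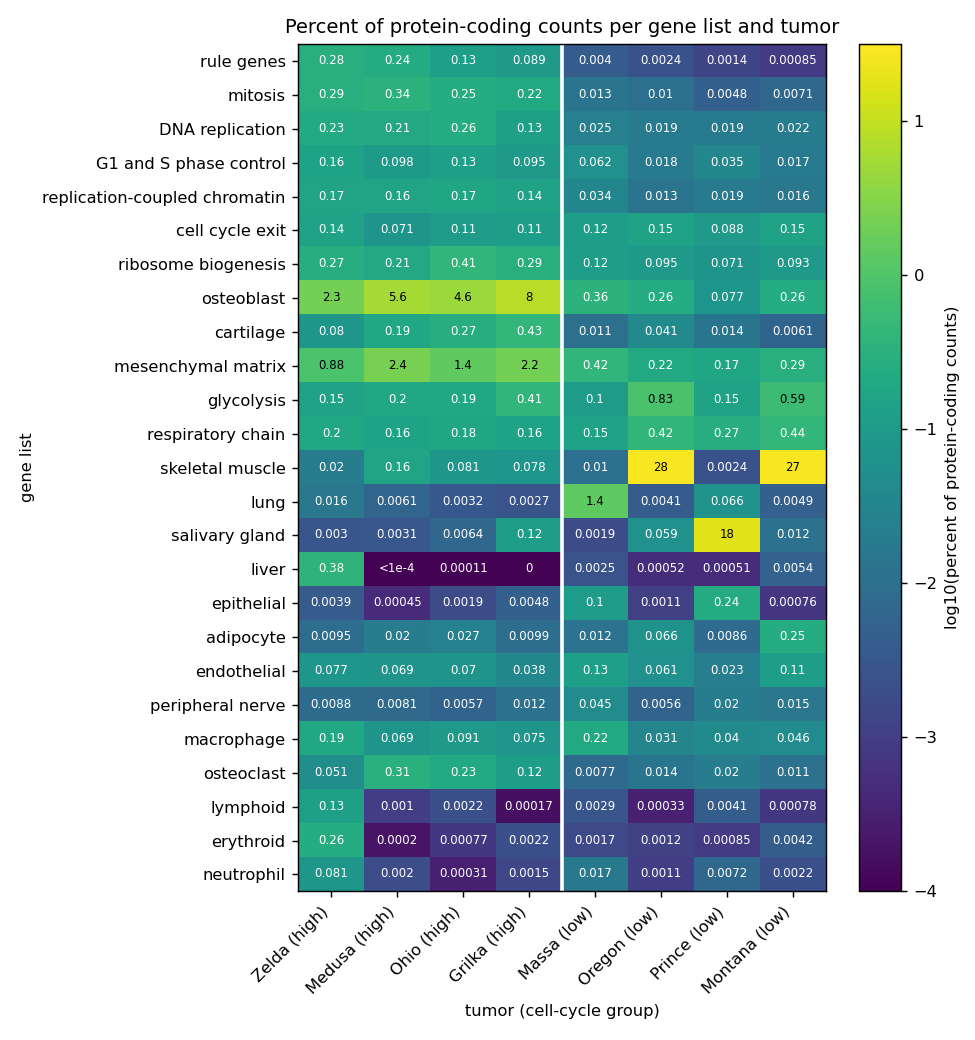
Cells give the percent of protein-coding counts on each gene list in the 8 tumors, high on the left and low on the right, with color on a log10 scale. The osteoblast row is bright in every high tumor (2.28% to 7.997%), whereas skeletal muscle, salivary gland and lung are bright in different low tumors.

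Osteoclasts are the bone-resorbing cells that form from the macrophage lineage, and their genes were higher in the high tumors. Of 11 osteoclast genes 8 were tested, all 8 had a positive sign, their median was 3.32 on the log2 scale, and 5 were called higher against 4.71% of all genes. *Ctsk*, the protease cathepsin K, was at 378, 275, 124 and 23.5 CPM in Medusa, Ohio, Grilka and Zelda and at 5.73, 7.08, 3.40 and 10.1 CPM in Massa, Montana, Prince and Oregon (log2 fold change 4.92, standard error 0.84, edgeR adjusted p = 0.00993). *Acp5*, tartrate-resistant acid phosphatase, was at 57.2 to 416 CPM against 3.82 to 25.4 CPM (log2 fold change 4.06, standard error 0.76, edgeR adjusted p = 0.0134). *Mmp9*, a gelatinase, was also called (log2 fold change 4.83, edgeR adjusted p = 0.0226), although Zelda with 13.1 CPM was below Oregon with 21.5 CPM. *Ocstamp* and *Itgb3* were the other members called. The count was 1 without Medusa, 1 without Montana, 2 without Ohio and 3 without Oregon. It was 1 of 11 without both Montana and Oregon and 3 of 8 without Massa and Grilka.

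Macrophage genes as a whole did not show this pattern. All 20 were tested, *Msr1* and *Ms4a7* were called higher, against 4.71% of all genes, and the median was 0.77. The count was 0 by edgeR without Medusa, Montana, Ohio, Zelda or Oregon (3 or 4 genes at an unadjusted p under 0.05), 1 without Prince or Grilka and 4 without Massa. *Csf1r*, the receptor for the growth factor CSF1, was at 44.4 to 106 CPM against 24.7 to 49.6 CPM (log2 fold change 1.25, edgeR adjusted p = 0.0883). *Lyz2*, lysozyme, was at 1635 CPM in Massa, which also held the lung genes, and at 43.7 to 315 CPM in the other 7.

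Although the leading tissues differed, some genes were read in all 4 low tumors at levels above every high tumor. The 12 protein-coding genes with the smallest p among those without overlap are described here, so that the lack of overlap and the small p were conditions of the choice. *Casz1*, a zinc finger transcription factor (GRCm38 chromosome 4, 148804429 to 148954889), was at 82.1, 134, 138 and 150 CPM in Massa, Montana, Prince and Oregon and at 1.16, 1.01, 2.16 and 3.24 CPM in Medusa, Ohio, Grilka and Zelda. The lowest low tumor was well above the highest high tumor (log2 fold change −6.06, standard error 0.56, edgeR adjusted p = 0.00185). *Mapt*, the microtubule-associated protein tau (chromosome 11, 104231390 to 104332090), was at 49.7, 128, 209 and 176 CPM in the low tumors in the same order. In the high tumors it was at 0.852 to 2.16 CPM (log2 fold change −6.75, standard error 0.63, edgeR adjusted p = 0.00185).

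Motor and membrane proteins were among the same genes. *Myh14*, a nonmuscle myosin heavy chain, was at 361, 114, 139 and 138 CPM in Massa, Montana, Prince and Oregon and at 0.331, 1.39, 0 and 0.636 CPM in Medusa, Ohio, Grilka and Zelda (log2 fold change −7.94, standard error 0.78, edgeR adjusted p = 0.00185). *Myo5c*, a class V myosin of secretory epithelia, was at 71.2 to 362 CPM in the low tumors and 0 to 1.78 CPM in the high tumors. *Cystm1*, a small membrane protein, was at 57.9 to 128 CPM against at most 6.81 CPM, and *Dpep1*, a membrane dipeptidase, was at 24.5 to 43.9 CPM against 0.810 to 1.78 CPM. *Ltbp4*, which binds latent TGF-beta in the matrix, was at 118, 193, 92.0 and 127 CPM in the low tumors and between 12.6 and 17.1 CPM in every high tumor (log2 fold change −3.11, standard error 0.40, edgeR adjusted p = 0.00375). *Sh3rf2*, *Pclo* and *Podn* completed the set of 12 with *Lipe* and *Pnpla2*.

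*Lipe* and *Pnpla2* encode the hormone-sensitive and the adipose triglyceride lipases, which release fatty acids from stored fat. *Lipe* was at 49.7, 64.7, 54.1 and 38.4 CPM in Massa, Montana, Prince and Oregon and at 5.29, 5.96, 2.16 and 7.29 CPM in Medusa, Ohio, Grilka and Zelda (log2 fold change −3.24, standard error 0.44, edgeR adjusted p = 0.00542). *Pnpla2* was at 57.3 to 269 CPM against 8.59 to 17.3 CPM (log2 fold change −3.91, standard error 0.57, edgeR adjusted p = 0.00645). In contrast to *Plin4*, both genes were high in all 4 low tumors, Massa and Prince included. *Ivd*, an enzyme of leucine breakdown that was picked after its values were seen, was at 47.8, 48.7, 53.1 and 50.0 CPM in Massa, Montana, Prince and Oregon and at 6.28 to 11.5 CPM in the high tumors (log2 fold change −2.50, standard error 0.37, edgeR adjusted p = 0.00689). Of the 12 genes, 10 passed in all 19 alternative settings, and *Pclo* and *Podn* did not in 1 each of the settings that could test them. The 12 were chosen by their p, and the alternatives refit the same tumors or most of them, so this is no independent support.

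A pair of genes higher in the high tumors was likewise picked after the values were seen. *Wif1*, a secreted Wnt inhibitor, was at 25.9, 77.0, 37.9 and 102 CPM in Medusa, Ohio, Grilka and Zelda and at 0, 1.04, 0.867 and 3.36 CPM in Massa, Montana, Prince and Oregon (log2 fold change 5.30, standard error 0.76, edgeR adjusted p = 0.00627). *Tmem119*, known in osteoblast differentiation and in microglia, was at 54.7 to 106 CPM against 4.16 to 7.87 CPM (log2 fold change 3.68, standard error 0.44, edgeR adjusted p = 0.00252).

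Single high tumors carried runs of neighboring genes at raised levels. Levels of 10645 protein-coding genes with a mean over 5 CPM in the high tumors were compared in windows of 15 genes, as a description. Each high tumor was set against the median of the other 3. The window with the highest median was taken, widened while the window median stayed over 2 and trimmed to genes over 2. The height of a run over its flanks thus follows from the choice. Some genes passed the filter through 1 tumor, such as *Dlgap2*, at 25.1 CPM in Medusa and at most 0.405 CPM in the other high tumors. In Medusa a run on chromosome 8 (GRCm38, 12873806 to 14847680) held 18 genes, of which 15 were over 2 on the log2 scale, with a median of 4.28. *Tfdp1*, the DNA-binding partner of E2F factors, was at 2469 CPM in Medusa and at most 148 CPM in the other high tumors. *Cul4a*, a scaffold of ubiquitin ligases, was at 2202 CPM against at most 121 CPM, and *Cdc16*, a subunit of the anaphase-promoting complex, at 1683 CPM against at most 81.2 CPM. *Upf3a* and *Champ1* inside the run were not raised, with values of 0.04 and −1.24 on the log2 scale.

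In Ohio a run on chromosome 3 (94413273 to 96161129) held 42 genes, of which 27 were over 2, with a median of 2.56. All 42 had a positive value. *Setdb1*, a histone H3 lysine methyltransferase, was at 861 CPM in Ohio and at most 103 CPM in the other high tumors, and *Mcl1*, which inhibits apoptosis, was at 607 CPM against at most 312 CPM. *Ctsk* lies in this interval, but it was highest in Medusa, with 378 CPM. The highest windows of Zelda and Grilka fell on clusters of similar gene copies, on chromosomes 1 and 7, and the latter was made up in part of the *Klk1b* genes given above. DNA copy number was not measured.

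**Figure D5:**
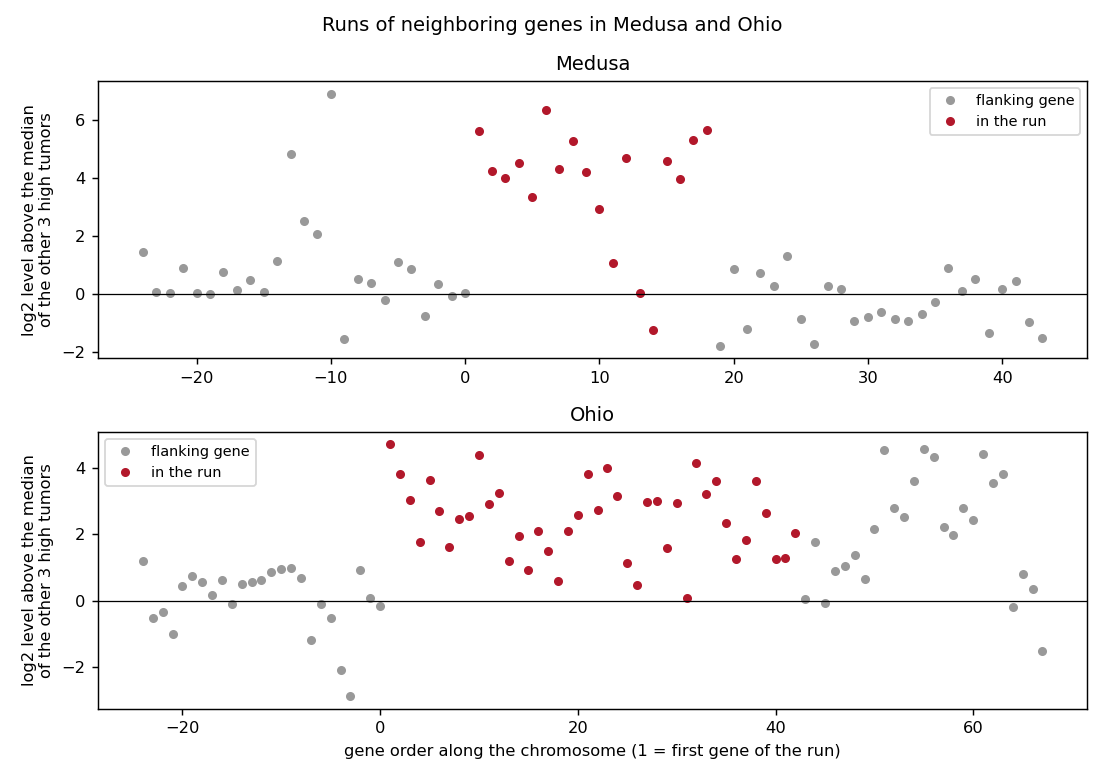
Each point is a protein-coding gene in chromosome order, as its log2 level above the median of the other 3 high tumors, in the run (red) and in up to 25 genes on each side (gray). The runs were chosen by their raised levels, so their height over the flanks follows from the choice. The 18 genes of the Medusa run had a median of 4.28 against 0.11 for 50 flanking genes, and the 42 of the Ohio run had 2.56 against 0.71, with further raised genes left of the Medusa run, *Myo16* and *Lig4* among them, and right of the Ohio run.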

How the data were processed

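The authors removed ribosomal RNA, sequenced the libraries from one end, aligned the reads to mm10 and Ensembl transcript models with Novoalign 2.08.01 (up to several alignments per read, the best kept), counted reads per gene with USeq and ran DESeq2 1.26.0. The values used are the raw counts per gene deposited by the authors (25054 genes, all with a total of at least 6 over 16 tumors). The strand setting of the counting is not given in the sources used here, so overlapping and antisense genes cannot be told apart.

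The 8 tumors with floxed *Arid1a* were divided by the score of 5 cell-cycle genes. The division and the gene lists were chosen with earlier results of these data known. edgeR 4.0.16 in R 4.3.3 (filterByExpr with settings of 10 for the smallest count and 15 for the smallest total, TMM, glmQLFit and glmQLFTest, two-sided, Benjamini-Hochberg threshold 0.05, no covariate) tested 13130 genes and left out 11924. The biological coefficient of variation was 65%. In simulated counts for this comparison on 13130 genes, 86 of 100 genes changed by 4 on the log2 scale and 95 of 99 changed by 6 were found, and 5 unchanged genes were called. Each simulated gene had a single mean per group, so these rates do not cover genes split within a group, such as those of muscle. The 25 lists held 439 symbols, 437 of them in the table and 307 tested. Lists were not tested as sets.

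Genes named were the 5 score genes, the 3 most abundant tested members of a list, in each direction the 12 protein-coding genes outside the cell-cycle lists with the smallest p among those without overlap, and the 5 leading genes of each low tumor. All other list members named, the genes in runs, *Lig4*, *Alb*, *Itga10*, *Myo16*, *Cr2*, *Wif1*, *Tmem119* and *Ivd*, were picked with their values in view. Some list members are not reported here by name. The *Arid1a*, *Trp53* and *Rb1* genes are named because they carry the conditional alleles. Positions come from GENCODE vM21 (GRCm38), in which 24974 identifiers were found. Alternatives were DESeq2 1.42.0, limma 3.58.1 (voom), other scalings and filters, protein-coding genes alone, all 16 tumors in the fit, depth as a covariate, the score as a continuous covariate and leaving out each tumor. The fits without Massa and Grilka and without Montana and Oregon, a smaller prior count and the score without each tumor were added after the data were seen. Python 3.11.15 with pandas 2.3.3, scipy 1.17.1 and matplotlib 3.10.9 was used for the rest.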

Additional observations from a re-analysis of the deposited data

Results flagged for a closer look

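Mean log2 CPM over a list was examined for a tumor that stood far from the other 3 of its group by Dixon's ratio at its 95% critical value. Of 46 such values 7 passed, and chance passes about 5% of them. In the low tumors, Prince was lowest in the cell cycle exit list (4.04, nearest tumor 5.13), Oregon was highest in the cartilage list (3.86, nearest 0.60) and Massa was highest in the lung list (8.41, nearest 0.19). In the high tumors, Grilka was highest in glycolysis (6.73, nearest 5.39) and in the salivary gland list (2.52, nearest −0.84), and lowest in the endothelial list (3.44, nearest 4.23). Zelda was highest in the liver list (5.28, nearest −1.82).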

How the results depend on the processing

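The number of genes called, 1147, was 2765 in DESeq2 (1237 higher, 1528 lower, 1129 shared), 737 without a filter on low counts, 2969 with all 16 tumors in the fit and 516 without Montana and Oregon (171 higher, 345 lower, 272 shared). The fit of all 16 took the 8 WT tumors, which came from 4 mice, as independent, and this can make its spread too small. Leaving out 1 tumor gave 248 (without Medusa) to 1589 (without Massa). The other 6 alternatives and the fit without Massa and Grilka gave 949 to 1346. The score difference of 5.65 became 4.89 with the mitosis list, 3.27 with the replication list and 2.98 after subtracting the mesenchymal score, and was 5.38 to 6.02 without 1 tumor. The depth difference was −0.010 on protein-coding counts. Without Montana and Oregon the median of cell cycle exit was 0.41 and that of skeletal muscle 3.79, and *Ccnd2* (−0.19), *Ccnd3* (−0.54), *Pkm* (1.35), *Ldha* (0.37), *Ttn* (4.29), *Myh4* (10.32), *Atp2a1* (3.96) and *Fabp4* (0.62) changed sign. Without Massa and Grilka the cartilage median was −1.32, *Acan* −1.62, *Ager* 1.79 and *Lyz2* 0.91. With depth as a covariate *Acan* was −0.19 and *Lyz2* 0.18, and in voom *Ager* was 0.48, *Cdh5* 0.16 and *Jchain* −1.42. Leaving out 1 tumor gave ranges that crossed 0 for the medians of cell cycle exit (−0.43 to 0.19) and cartilage (−1.04 to 4.89), and for *Ccnd3* (−0.18 to 0.46), *Acan* (−1.44 to 6.22), *Pkm* (−1.40 to 0.27), *Ager* (−6.18 to 1.70), *Lyz2* (−2.54 to 0.78), *Mrc1* (−0.14 to 0.65), *Jchain* (−5.01 to 2.80), *Hbb-bs* (−3.02 to 4.75), *Alas2* (−2.24 to 2.64), *S100a9* (−2.57 to 3.72), *Lcn2* (−5.91 to 0.18) and *Rb1* (−0.10 to 1.00). None of the genes that changed sign passed the threshold where its sign differed, and the causes were not tested. No paired analysis was possible because each floxed tumor came from a different mouse. A count of 3 limits what can be seen in Massa and Grilka to 5.73 and 3.25 CPM.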

Other observations

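With the mitosis list, the DNA replication list, a smaller prior count, TMM scaling, or the score minus that of mesenchymal matrix genes, the same 4 tumors ranked highest. In the last of these the gap between the groups was 0.77, and the range of the WT tumors, −5.69 to −0.96, covered all 4 low tumors and, of the high tumors, Grilka and Medusa.

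In single high tumors, genes outside the division stood out, and *Itga10* and *Myo16* lie among the raised genes that flank the runs of Ohio and Medusa. *Itga10*, an integrin that binds collagen, was at 1289 CPM in Ohio and at most 106 CPM in the other 7 tumors, and *Mepe*, a phosphoglycoprotein of osteocytes, was at 96.4 CPM in Ohio and at most 10.5 CPM elsewhere. *Myo16*, an unconventional myosin, was at 604 CPM in Medusa and at most 19.5 CPM elsewhere. In Zelda *Cr2*, the complement receptor of B cells, was at 426 CPM and *Slc4a1*, the anion exchanger of red cells, at 580 CPM, against at most 5.73 and 7.70 CPM in the other 7. These genes were chosen after their values were seen.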
